A study of Mus musculus with 24 samples.

Results

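The genes described here encode the protein part of the mitochondrial ribosome. They were taken by name, as every protein-coding mouse gene whose symbol starts with Mrpl or Mrps followed by a number, with processed pseudogenes left out, after the Ensembl identifiers of the count files had been matched to symbols. This gave 78 of 56923 gene identifiers, of which 49 were Mrpl genes, named for the large subunit, and 29 were Mrps genes, named for the small subunit. They were read in RNA from sorted cardiomyocyte (CM) nuclei of mouse hearts at postnatal day 1 (P1), P7 and P14, in a series that asked what the loss of Caspase-2 in CMs does to their gene expression during the first postnatal weeks. Control hearts were XMLC2(-)Casp2(fl/fl) and Casp2-depleted hearts were XMLC2(+)Casp2(fl/fl): both carried the floxed Casp2 alleles on a C57BL/6N background, and only the latter carried Cre under the XMLC2 promoter, which is active in CMs. The controls are labelled WT, but they were not free of the floxed alleles. There were 4 libraries in each of the 6 groups of day and genotype, each made from 15 pooled hearts at P1, 6 at P7 and 2 at P14, so that the groups of different days also differed in how many hearts a library averaged. CM nuclei were sorted on PCM1, a protein at the nuclear envelope of muscle cells, so the RNA is nuclear RNA with many unspliced transcripts and not the cytoplasmic mRNA pool.

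The mitochondrial ribosome translates the few proteins encoded by mitochondrial DNA, all of them hydrophobic subunits of the respiratory chain and ATP synthase. Its ribosomal RNAs are made inside the organelle, whereas all of its proteins are encoded in the nucleus, made on cytosolic ribosomes and imported. The small subunit binds the mRNA and decodes it, and the large subunit holds the peptidyl transferase centre and the exit tunnel, which faces the inner membrane. Some of these proteins have a bacterial ribosomal counterpart and others were gained in the mitochondrial lineage. After birth the heart turns to oxidative metabolism and its CMs fill with mitochondria.

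The values below rest on 21 of the 24 libraries, and the other 3 were left out. The study had set the same libraries aside for low quality. In the count files the P14 control replicate 3 and the P14 Casp2-depleted replicate 1 held reads on only 2049 and 4285 genes, somewhat more than the study states for them. The remaining library, the first P1 control replicate, had been set aside because gene sets of mitochondria, ribosomes and translation were high in it, which the study read as carry-over of cytoplasm. That choice used genes of the kind described here, so values with all 24 libraries are given where they differ. In this library 0.152% of reads fell on the 78 genes and 59 of them had a read. The 21 libraries held 891817 to 2924097 reads on genes. Of the uniquely placed reads, the share that fell on no gene was 60.7 to 73.9% in P1 controls, 36.8 to 70.6% in P1 Casp2-depleted, 36.7 to 54.7% in P7 controls, 34.3 to 64.3% in P7 Casp2-depleted, 63.7 to 75.2% in P14 controls and 72.2 to 76.1% in P14 Casp2-depleted libraries. Casp2 itself could not check the genotypes: it had 0 reads in every P1 and P14 library of the 21 and 0 to 5 reads in the P7 libraries, with 1.36 ± 1.23 CPM (SD, n = 4) in P7 controls and 1.18 ± 1.36 CPM (SD, n = 4) in P7 Casp2-depleted libraries. Of 12 CM markers, all 12 were detected and 11 had reads in all 21 libraries, and together they took 1.77 to 9.84% of reads on genes. The 8 fibroblast markers took 0.00754 to 0.0379%, the 8 endothelial markers 0.00516 to 0.112%, the 8 mural cell markers 0.00884 to 0.0557%, the 8 macrophage markers 0.00617 to 0.0382% and the 6 erythroid markers 0 to 0.0110%. Egfl7 and Cd68 had 0 reads, and C1qa and C1qb had 1 read each. The mural cell share rested mostly on Abcc9, with 7968 reads over the 21 libraries, against 1606 for the next, Cspg4. Abcc9 had reads in all 21 libraries, and whether they came from mural cells or CMs was not tested.

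Transcripts of the mitochondrial ribosomal protein genes were rare in these nuclei. The 78 genes together took 0.0320 to 0.108% of the reads on genes of a library, with a median of 0.0743% over the 21 libraries. No read fell in any of the 24 libraries on Mrpl33, Mrpl53, Mrps18b and Mrps6. Mrpl33 and Mrps6 lie wholly within other gene models of the same strand, where a count that drops reads shared by 2 genes would leave none. In all, 54 members overlapped another gene model and 12 of these did so on the same strand. Of the 78 members, 67 passed the filter of at least 10 reads in all and a read in at least 3 libraries, namely 44 large and 23 small subunit genes, and 60 had at least 50 reads over the 21 libraries. The members are short genes, with a median length of 8.09 kb against 19.3 kb for 21631 protein-coding genes, and longer members had more reads: the median was 134.5 reads in the shortest 26, 220 in the middle 26 and 370 in the longest 26.

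Among the large subunit genes the most reads over the 21 libraries fell on Mrpl47 (1678), Mrpl48 (1485), Mrpl20 (1407), Mrpl2 (1241), Mrpl45 (1128) and Mrpl13 (820). Mrpl2 encodes the counterpart of bacterial L2 near the peptidyl transferase centre, and Mrpl45 sits at the tunnel exit and helps to attach the ribosome to the inner membrane. Among the small subunit genes they fell on Mrps5 (1914), Mrps27 (819), Mrps28 (810), Mrps18a (763), Mrps10 (551) and Mrps9 (447). The same few genes did not lead in every library. The 3 most-read members of a library held 15.3 to 87.7% of its member reads. Mrpl48 was the only member with a read in all 21 libraries.

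**Figure D1:**
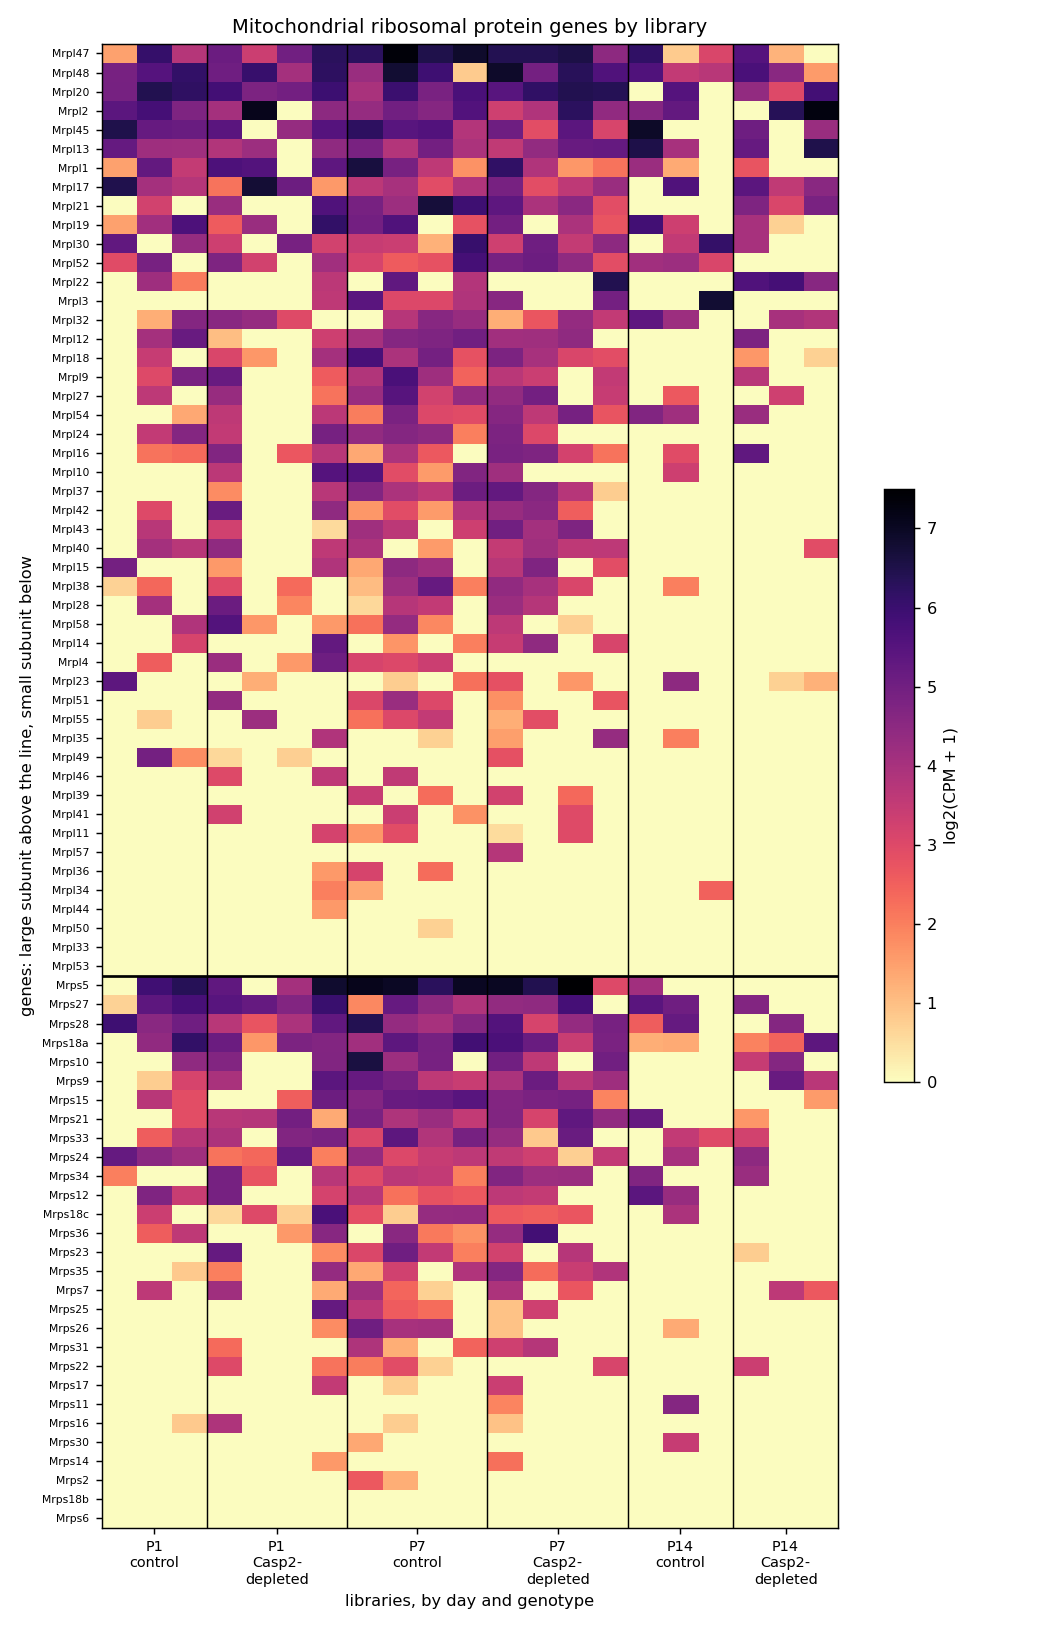
Level of each of the 78 genes (rows, large subunit above the line, ordered by reads) in each of the 21 libraries (columns, by group), as log2(CPM + 1), where CPM is read counts divided by the scaled library size (counts per 1e6). Pale cells are at or near 0; a read was found for 7 to 63 members a library, with most in the P7 groups and fewest at P14.

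The number of members with a read was highest at P7 and lowest at P14. It was 30.67 ± 11.15 of 78 (SD, n = 3) in P1 controls, 38.25 ± 19.5 (n = 4) in P1 Casp2-depleted, 54.75 ± 7.27 (n = 4) in P7 controls, 46.25 ± 11.76 (n = 4) in P7 Casp2-depleted, 17.33 ± 10.5 (n = 3) in P14 controls and 19.0 ± 5.2 (n = 3) in P14 Casp2-depleted libraries. Over all genes, the number with a read was also highest at P7 and lowest at P14. Its means were 13379, 13344, 15721, 15272, 10179 and 10919 genes in the same order of groups. The number of members with a read in every library of the group was 12, 10, 35, 25, 3 and 6 in the same order. At P14 these were Mrpl47, Mrpl48 and Mrpl52 in controls and Mrpl17, Mrpl20, Mrpl21, Mrpl22, Mrpl48 and Mrps18a in Casp2-depleted CMs. In each P14 group 44 members, not all of them the same, had no read in any library of the group, as against 9 in P7 controls and 12 in P7 Casp2-depleted CMs.

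This count moved with the share of reads on no gene. With every library thinned to 891817 reads, the 9 libraries with under 60% of reads on no gene had reads for 41 to 61 members (median 52), and the 12 libraries at or above it for 7 to 38 (median 21). Over all genes, the thinned libraries had reads for 13410 to 16915 genes in the 9 and 7628 to 14632 in the 12. Within P1 the 2 libraries below this share had 50 to 57 members and the 5 above it 17 to 38. Within P7 the 7 libraries below it had 41 to 61 and the library above it 35. All 6 P14 libraries were above it, with 7 to 27 members, so the day P14 and a high share of reads outside genes cannot be told apart. The CM markers moved the same way, at 5.05 to 9.84% of reads on genes in the 9 libraries and 1.77 to 6.26% in the 12. The share outside genes was entered as a covariate in an alternative fit, whose values stand beside the results; the part of the markers was not tested. In sorted nuclei in bulk, fewer CM nuclei and less RNA per nucleus cannot be told apart.

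**Figure D2:**
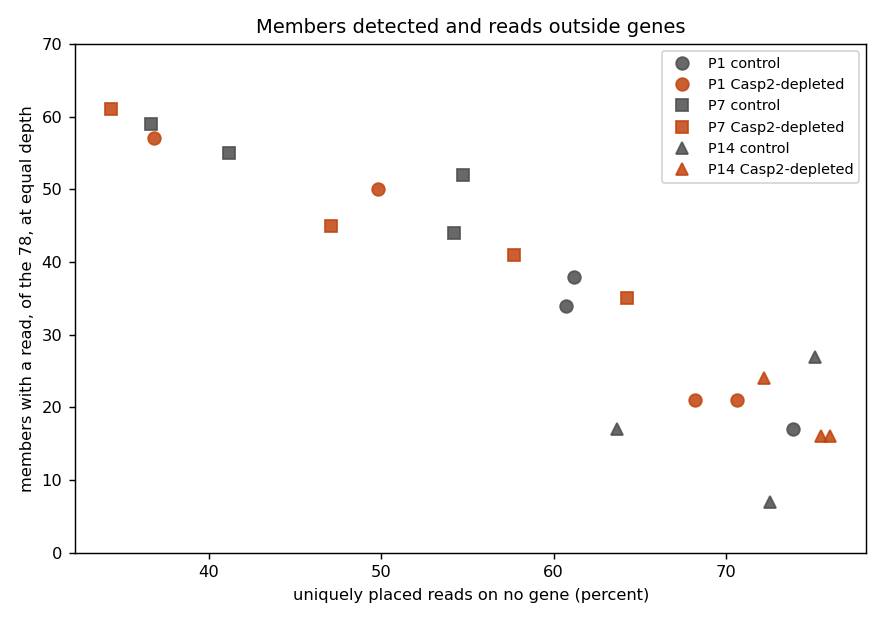
Number of the 78 genes with a read after each library was thinned to 891817 reads (vertical axis) against the percent of uniquely placed reads that fell on no gene (horizontal axis), 1 point per library, shape by day and colour by genotype. Points run from 61 members in the library with 34.3% of reads on no gene down to 7 to 27 in the 6 P14 libraries.

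A member with no read in a library was often well read in its replicate. Among members that had at least 20 reads in some library of their group, 28.6% of the values in the other libraries of P1 controls were 0, 43.2% in P1 Casp2-depleted, 9.71% in P7 controls, 22.4% in P7 Casp2-depleted, 56.6% in P14 controls and 45.3% in P14 Casp2-depleted libraries. Over all genes the same shares were 19.5, 25.7, 13.0, 15.8, 32.1 and 28.2%. Replicate libraries of a group differed far beyond counting error over all genes, with a chi-square of 17.8 to 165 per degree of freedom in the 36 replicate pairs of the 24 libraries. Among the 21 libraries used the highest was 75.3, and all higher values came from pairs with a library left out. A count of 0 in a single library allows a level of up to 1.03 to 3.36 CPM of unscaled reads on genes, taking 3 reads as the limit; this covers counting error only.

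The large subunit genes together held a similar share of reads in all 6 groups. It was 0.0522 ± 0.00555% of reads on genes (SD, n = 3) in P1 controls, 0.0497 ± 0.0189% (n = 4) in P1 Casp2-depleted, 0.0559 ± 0.00382% (n = 4) in P7 controls, 0.0531 ± 0.0104% (n = 4) in P7 Casp2-depleted, 0.0412 ± 0.0136% (n = 3) in P14 controls and 0.0493 ± 0.0172% (n = 3) in P14 Casp2-depleted libraries. The small subunit genes held 0.0221 ± 0.00924%, 0.0256 ± 0.0136%, 0.0329 ± 0.00976%, 0.0287 ± 0.0102%, 0.0136 ± 0.0110% and 0.0119 ± 0.00258% in the same order. All 6 P14 libraries lay at or below 0.0212% for the small subunit, and the 4 P7 control libraries lay from 0.0262 to 0.0473%, so those groups did not overlap. The P7 Casp2-depleted libraries, at 0.0162 to 0.0371%, lay above the P14 Casp2-depleted ones (up to 0.0145%) but overlapped the P14 controls. Both P1 groups overlapped both P14 groups. For the large subunit the ranges of every group overlapped those of the others.

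The median ratio of large to small subunit reads was highest at P14 in both genotypes. It was 2.49 in P1 controls (range 1.46 to 4.30), 1.72 in P1 Casp2-depleted (0.996 to 6.46), 1.88 in P7 controls (1.30 to 2.04), 1.75 in P7 Casp2-depleted (1.52 to 2.95), 3.06 in P14 controls and 4.46 in P14 Casp2-depleted CMs. The 3 P14 control libraries had ratios of 1.69, 3.06 and 30.7, and the last of these came from replicate 4, in which 276 reads fell on large and 9 on small subunit genes. The P14 Casp2-depleted libraries had ratios of 2.11, 4.46 and 6.92. Summed over the libraries of a group the ratio was 2.35 (2133 to 908 reads), 1.81 (3853 to 2127), 1.69 (4642 to 2751), 1.82 (4334 to 2380), 2.95 (1369 to 464) and 4.09 (1577 to 386). Genotypes of the same day overlapped in this ratio at each of the 3 days. The P14 Casp2-depleted libraries lay above all P7 control libraries but not above all P7 Casp2-depleted ones, and the P14 control libraries overlapped both P7 groups. Detection did not differ between the subunits in the same way: 42.2% of large and 34.5% of small subunit genes had a read in the average P1 control library, 49.0 and 49.1% in P1 Casp2-depleted, 70.4 and 69.8% in P7 controls, 61.2 and 56.0% in P7 Casp2-depleted, 23.1 and 20.7% in P14 controls and 26.5 and 20.7% in P14 Casp2-depleted libraries. The ratio also moved with the share of reads on no gene, with a median of 1.73 (1.30 to 2.04) in the 9 libraries under 60% and 3.00 (0.996 to 30.7) in the other 12.

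**Figure D3:**
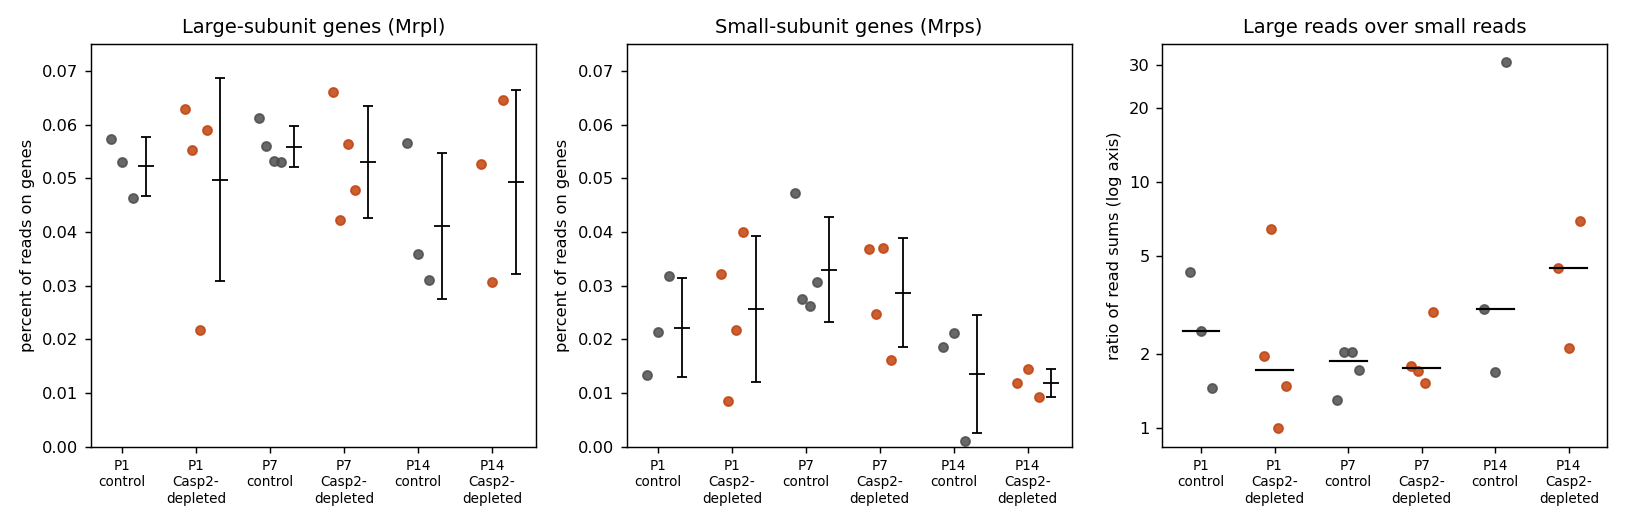
Percent of reads on genes that fell on large (left) and small (middle) subunit genes, with the mean ± SD beside the points, and the ratio of the sums on a log axis with the median as a line (right), 1 point per library and group. The large subunit groups overlap throughout, the small subunit points at P14 lie at or below 0.0212%, and P14 control replicate 4 stands apart at a ratio of 30.7.

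Mrps5 was the small subunit gene with the most reads and the only member whose change passed the edgeR test in any comparison. It encodes the counterpart of bacterial S5, a protein of the decoding region of the small subunit. Mrps5 (ENSMUSG00000027374) lies on the plus strand at chr2:127429135-127448789 (GRCm39), has 12 exons over 19.7 kb and overlaps no other gene model, and reads were counted over exons and introns alike. Its level was 0, 58.5 and 80.2 CPM in the 3 P1 control libraries and 38.7, 0, 15.6 and 114.4 CPM in the 4 P1 Casp2-depleted libraries. At P7 it was 135.9, 126.8, 77.2 and 127.5 CPM in controls and 128.5, 85.6, 179.6 and 7.03 CPM in Casp2-depleted CMs. At P14 it was 16.3, 0 and 0 CPM in controls and 0 in all 3 Casp2-depleted libraries. Every P14 library of Casp2-depleted CMs was thus below every P7 library, the lowest of which held 7.03 CPM.

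In Casp2-depleted CMs Mrps5 was at least 157-fold lower at P14 than at P7 (0 against 654 reads, fitted log2 fold change -10.27, SE 1.95, edgeR adjusted p = 2.81e-05). Against P1 it was at least 72.1-fold lower (0 against 329 reads, log2 fold change -9.02, SE 1.90, edgeR adjusted p = 0.000413), but the groups overlapped, since a P1 library was also at 0. In controls the P14 to P7 difference was -4.40 (SE 1.36, 23 against 724 reads, edgeR adjusted p = 0.0578), which missed the threshold but passed with both limma-voom fits. Whether the fall differed between the genotypes was tested directly and was not shown: the genotype-by-day term from P7 to P14 was -5.87 (SE 2.07, edgeR adjusted p = 0.415), and at P14 the genotypes differed by -6.09 (edgeR adjusted p = 0.192). The fall from P7 passed in every alternative fit, with fitted values of -10.41 to -7.07 over the alternatives other than leaving out a library, and with the share outside genes as a covariate it was -7.74. The fall from P1 did not pass with limma-voom (-5.44, adjusted p = 0.0929), with quantile normalization (-5.20, adjusted p = 0.0598), with only these groups in the edgeR fit (-9.07, adjusted p = 0.197) or with the share outside genes as a covariate (-6.21, adjusted p = 0.124).

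The promoters of the members at the ends of the differences are shown as 250 bases before to 50 bases after the annotated start, 5′ to 3′ on the gene's strand (GRCm39). Capitals mark the ETS family motif CCGGAAG and the NRF1 motif GCGCANGCG on either strand; no motifs overlapped in these windows. Mrps5 is shown because it alone passed the test (chr2:127428885-127429184, plus strand), and it holds none of the motifs searched. Mrpl22 was read in every P14 Casp2-depleted and no P14 control library (chr11:58062225-58062524, plus strand), and Mrpl52 showed the opposite (chr14:54664110-54664409, plus strand).
Mrps5: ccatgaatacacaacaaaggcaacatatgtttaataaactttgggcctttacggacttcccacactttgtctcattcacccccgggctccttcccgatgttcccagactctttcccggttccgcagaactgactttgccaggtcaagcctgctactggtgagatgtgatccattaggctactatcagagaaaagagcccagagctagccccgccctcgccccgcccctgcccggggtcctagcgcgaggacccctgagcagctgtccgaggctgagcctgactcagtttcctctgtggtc
Mrpl22: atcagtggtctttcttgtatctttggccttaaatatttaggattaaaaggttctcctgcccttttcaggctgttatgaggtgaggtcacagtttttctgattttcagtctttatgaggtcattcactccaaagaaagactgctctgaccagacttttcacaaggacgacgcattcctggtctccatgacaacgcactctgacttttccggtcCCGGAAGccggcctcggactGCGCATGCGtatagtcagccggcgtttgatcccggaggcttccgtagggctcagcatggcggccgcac
Mrpl52: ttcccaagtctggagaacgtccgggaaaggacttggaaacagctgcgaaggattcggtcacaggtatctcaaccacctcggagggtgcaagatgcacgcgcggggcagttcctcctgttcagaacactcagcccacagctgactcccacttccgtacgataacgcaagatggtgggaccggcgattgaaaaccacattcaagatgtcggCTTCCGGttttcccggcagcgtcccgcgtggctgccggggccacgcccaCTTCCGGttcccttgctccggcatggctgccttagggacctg

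Across all members, promoters with these motifs were more frequent than across protein-coding genes. NRF1, a transcription factor of nuclear genes for mitochondrial proteins, had its motif in 16 of 78 member promoters (20.5%), against 8.08% of 21631 protein-coding promoters of the same length and 9.90% of the 14707 tested ones. The ETS motif, bound among others by GABPA, a factor that acts on genes of oxidative phosphorylation, was in 24 (30.8%), against 10.3 and 12.6%. The YY1 motif AAGATGGC was in 6 (7.69%), against 2.47 and 2.92%. Large and small subunit promoters held them at 22.4 and 17.2% for NRF1, 30.6 and 31.0% for ETS and 6.12 and 10.3% for YY1. A start site within 1000 bases of an opposite, outward-facing protein-coding gene was found for 14 members (17.9%), against 5.06% of all protein-coding genes. Among these pairs were Mrps12 with Sars2, a mitochondrial tRNA synthetase gene, Mrpl43 with Twnk, the mitochondrial DNA helicase gene, and Mrpl46 with Mrps11, a large and a small subunit gene. Median GC content was 57.5% in member and 54.3% in all protein-coding promoters.

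From P1 to P7 in controls most members were fitted higher, but none passed the test. Of the 67 tested, 51 were fitted higher at P7 and 16 lower, against 55% of all genes fitted higher, with a median log2 fold change of 1.34 for the members (1.28 at the bound that 3 reads allow for groups with no read) and 0.21 for all 20368 genes tested. The median was 1.07 for the large and 1.99 for the small subunit genes. By edgeR 0 members were called, against 0.00982% of all genes, and 6 had an unadjusted p under 0.05 (6.67% of all genes did). DESeq2 called 1 member, limma-voom 1 and limma-voom with quantile normalization 2. Here and below, the share of all genes called was taken for the main edgeR fit only. Counts from the other fits therefore have no such share to be read against. In 10 members every P7 control library was above every P1 control library, which held for 6.89% of all genes. With all 24 libraries the median was 0.47, with the share outside genes as a covariate it was 0.18, and without P1 control replicate 3 it was 2.45.

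Mrpl37, Mrpl10 and Mrpl3 led these 10 by fitted change among those with enough reads. Mrpl37 encodes a large subunit protein with no bacterial counterpart, Mrpl10 the counterpart of L10, at the base of the stalk that receives the translation factors, and Mrpl3 that of L3, near the peptidyl transferase centre. Mrpl37 had 0 CPM in all 3 P1 control libraries and 25.1, 14.4, 11.1 and 33.0 CPM in the 4 P7 control libraries, and was at least 30.3-fold higher (0 against 129 reads, log2 fold change 8.01, SE 3.36, edgeR adjusted p = 0.626). Mrpl10 (132 against 0 reads) was at least 31.0-fold and Mrpl3 (120 against 0 reads) at least 28.2-fold higher, with the same adjusted p. Mrpl47, the counterpart of bacterial L29 and the most-read large subunit gene, had 1.81, 66.9 and 12.7 CPM at P1 and 74.8, 164.9, 88.4 and 114.7 CPM at P7 (log2 fold change 2.02, SE 1.26, edgeR adjusted p = 0.654).

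In Casp2-depleted CMs the members moved little from P1 to P7. Of the 67, 36 were fitted higher and 31 lower (52.5% of all genes were fitted higher), with a median of 0.31, against 0.07 for all genes, 0.43 for the large and 0.11 for the small subunit. By edgeR 0 were called, against 0.0196% of all genes, and 3 had an unadjusted p under 0.05 (7.40% of all genes); DESeq2 and both limma-voom fits also called 0. The genotype-by-day term from P1 to P7 called 0 members by edgeR and by limma-voom and 1 by DESeq2, against 0% of all genes by edgeR, with 9 at an unadjusted p under 0.05 (6.83% of all genes). Its median was -1.18 over the members and -0.18 over all genes.

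From P7 to P14 the members were fitted lower in both genotypes. In controls 53 of 67 were fitted lower and 13 higher (35.2% of all genes were fitted higher), and the median log2 fold change was -4.40, against -0.75 over all genes. For 32 tested members the P14 controls had no read and the P7 controls more than 3. With these at the bound that 3 reads allow, and without members at 3 reads or fewer in both groups, the median was -2.45. By edgeR 0 members were called, against 1.88% of all genes, with 16 at an unadjusted p under 0.05 (14.8% of all genes). DESeq2 called 8, limma-voom 11 and its quantile form 7, for which the share of all genes called was not taken. In 14 members every P14 control library was below every P7 control library, which held for 13.5% of all genes. In Casp2-depleted CMs 56 were fitted lower and 7 higher (37.3% of all genes were fitted higher), with a median of -2.30, or -1.85 at the bound, against -0.61 over all genes. Mrps5 was the 1 member called by edgeR, against 2.83% of all genes, and 8 members did not overlap, lower at P14, against 10.9% of all genes. With the share outside genes as a covariate the medians were -1.28 in controls and -0.53 in Casp2-depleted CMs, against -0.66 and -0.43 over all genes.

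The summed shares and the fits per gene gave different pictures of this step. The large subunit share was 0.0559% at P7 and 0.0412% at P14 in controls, a smaller difference than that of the median member. The shares are of unscaled reads on genes, whereas the fits used scaled library sizes, so they are not on the same scale. The reads at P14 also lay on fewer genes. An average P14 control library had reads for 17.33 members and an average P7 control library for 54.75. How much each of these adds to the difference was not tested. The large subunit median from P7 to P14 was -3.90 in controls (-2.21 at the bound) and -2.38 in Casp2-depleted CMs (-1.75 at the bound). The small subunit median was -4.75 (-2.90 at the bound) and -2.24 (-2.24 at the bound). Fitted lower were 33 of 44 large and 20 of 23 small subunit genes in controls, and 35 and 21 in Casp2-depleted CMs.

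Mrpl21, Mrps15 and Mrpl18 had the largest fitted falls in controls among the members whose P7 and P14 libraries did not overlap, and none passed the edgeR test. Mrpl21 encodes the counterpart of bacterial L21, Mrps15 that of S15, an early rRNA binder of the small subunit, and Mrpl18 that of L18. Mrpl21 had 28.2, 17.3, 103.4 and 59.99 CPM in P7 controls and 0 in the 3 P14 control libraries, at least 69.5-fold lower (log2 fold change -9.33, SE 2.98, edgeR adjusted p = 0.0744). Mrps15 had 24.6, 35.3, 36.6 and 43.5 CPM in P7 controls and 0 at P14, at least 46.2-fold lower (edgeR adjusted p = 0.168). Mrpl18 had 53.3, 14.4, 29.4 and 6.00 CPM in P7 controls and 0 at P14, at least 38.5-fold lower (edgeR adjusted p = 0.240). DESeq2 and both limma-voom fits called all 3. In Casp2-depleted CMs the corresponding members were Mrps5, Mrpl52 and Mrpl37. Mrpl52, a large subunit protein without a bacterial counterpart, had 28.5, 32.5, 20.6 and 6.33 CPM at P7 and 0 at P14, at least 33.9-fold lower (edgeR adjusted p = 0.165). Mrpl37 had 36.9, 23.8, 12.4 and 0.703 CPM at P7 and 0 at P14, at least 30.8-fold lower (edgeR adjusted p = 0.234).

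**Figure D4:**
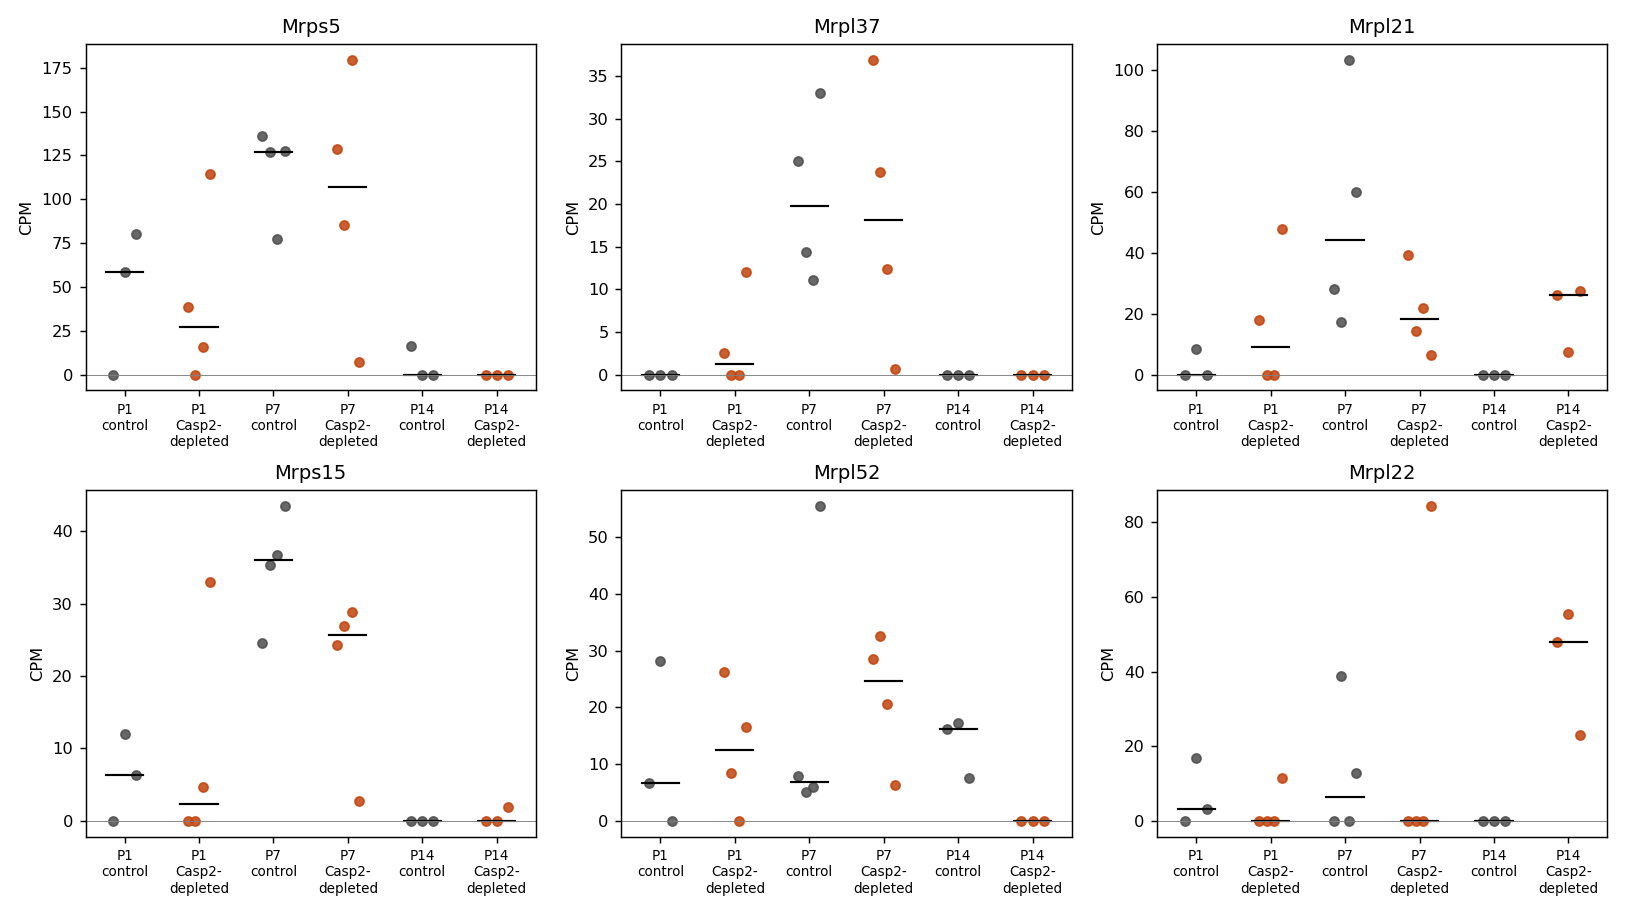
CPM of 6 named genes in each of the 21 libraries (vertical axes start at 0 and differ between panels), by day and genotype, with the group median as a line. Mrps5, Mrpl37 and Mrps15 have their highest group medians at P7 and medians of 0 at P14, where Mrps5 still held 16.3 CPM in a control library; Mrpl21 and Mrpl22 have reads in all 3 P14 Casp2-depleted and in no P14 control library, and Mrpl52 the reverse.

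Between P1 and P14 most members were fitted lower at P14 in both genotypes, and the difference between the genotypes, tested per gene, was passed by no member. In controls 40 of 67 were fitted lower at P14 and 15 higher (35.3% of all genes were fitted higher), with a median of -0.94, or -1.25 at the bound, against -0.28 over all genes. By edgeR 0 were called, against 0.319% of all genes, with 13 at an unadjusted p under 0.05 (11.5% of all genes), 2 by DESeq2 and 0 by both limma-voom fits. With P1 control replicate 1 and the other libraries set aside included, this median was -2.84. In Casp2-depleted CMs 55 were fitted lower and 11 higher (37.6% of all genes were fitted higher), with a median of -3.14, or -2.06 at the bound, against -0.41 over all genes. Mrps5 was the 1 member called by edgeR, against 1.94% of all genes. With the share outside genes as a covariate the median was -0.58 in Casp2-depleted CMs, against -0.23 over all genes, with 0 called, and -0.70 in controls, so the medians of the genotypes then stood in the reverse order. Medians for large and small subunit genes were -0.96 and -0.36 in controls and -2.77 and -3.69 in Casp2-depleted CMs. The genotype-by-day term from P1 to P14 called 0 members by edgeR and both limma-voom fits and 2 by DESeq2, against 0.0638% of all genes by edgeR, with 10 at an unadjusted p under 0.05 (11.7% of all genes).

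Mrpl22 was among the 11 members fitted higher at P14 in Casp2-depleted CMs. It encodes the counterpart of bacterial L22, which lines the exit tunnel. In Casp2-depleted CMs it had 0, 0, 0 and 11.5 CPM at P1 and 47.9, 55.5 and 22.9 CPM at P14, so the groups did not overlap (23 against 191 reads, log2 fold change 3.82, SE 2.27, edgeR adjusted p = 0.341). Both limma-voom fits called it. At P7 a single Casp2-depleted library held 84.4 CPM and the other 3 held 0. It was the 1 member with P14 above P1 in every library of this genotype (2.01% of all genes), and Mrps18c, the counterpart of bacterial S18, was the 1 member below in every library (4.78% of all genes). Mrps18c had 0.503, 7.02, 0.677 and 51.5 CPM at P1 and 0 at P14, at least 25.2-fold lower (edgeR adjusted p = 0.241). In controls 1 member did not overlap between P1 and P14, against 6.41% of all genes lower: Mrps24, the counterpart of bacterial S3, had 36.7, 21.8 and 16.7 CPM at P1 and 0, 15.0 and 0 CPM at P14 (log2 fold change -2.31, SE 2.53, edgeR adjusted p = 0.831).

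**Figure D5:**
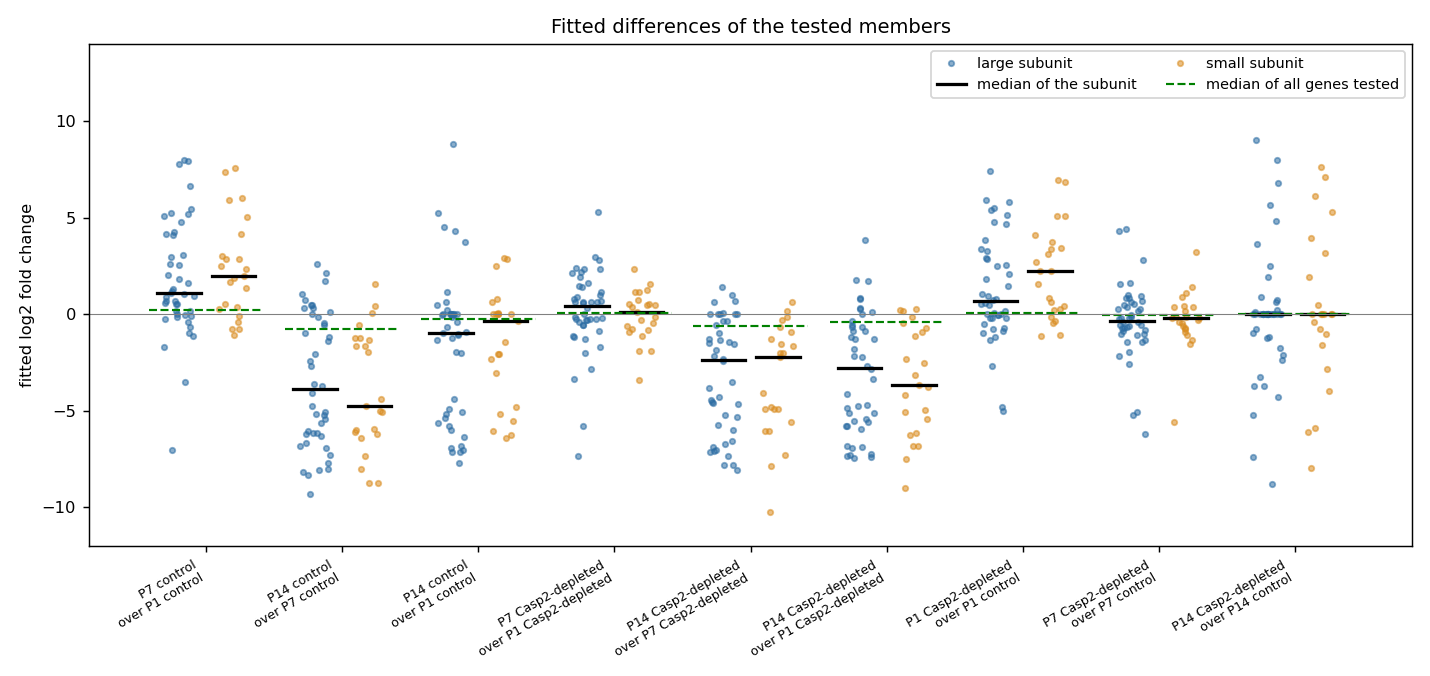
Fitted log2 fold changes (vertical axis) of the 44 large and 23 small subunit genes tested, 1 point per gene, in the 9 comparisons of 2 groups (horizontal axis), with the median of each subunit (black) and of all genes tested (green dashes). The subunit medians lie above the median of all genes from P1 to P7 in controls, at 1.07 and 1.99, and below it from P7 to P14, at -3.90 and -4.75 in controls.

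Between the genotypes on the same day, no member passed the edgeR test. At P1, 46 of 67 were fitted higher in Casp2-depleted CMs and 20 lower (52.4% of all genes were fitted higher), with a median of 0.85, or 0.69 at the bound, against 0.08 over all genes. The median was 0.66 for the large and 2.25 for the small subunit genes, or 0.52 and 0.85 at the bound. By edgeR 0 were called, against 0% of all genes, with 3 at an unadjusted p under 0.05 (7.34% of all genes), 1 by DESeq2 and 0 by both limma-voom fits, and no member separated the groups. With all 24 libraries the median was -0.052, with the share outside genes as a covariate -0.089, and without P1 Casp2-depleted replicate 4 it was 0, so its direction did not hold in these fits. At P7, 25 were fitted higher and 42 lower (48.1% of all genes were fitted higher), with a median of -0.25, against -0.03 over all genes, -0.34 for the large and -0.23 for the small subunit. By edgeR 0 were called, against 0% of all genes, with 3 at an unadjusted p under 0.05 (4.22% of all genes), and DESeq2 and both limma-voom fits also called 0. The study, by contrast, reports differentially expressed genes between the genotypes at this day from its own limma analysis. Why the edgeR fit called none was not tested.

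At P14 many members were read in only 1 of the genotypes. Of the 67, 21 were fitted higher and 23 lower in Casp2-depleted CMs (43.7% of all genes were fitted higher) and the other 23 had no read in either, which sets the fitted median of 0 for the members; over all genes it was also 0. In 19 members more than 3 reads of 1 genotype were set against 0 in the other. With these at the bound, and without those at or under the limit of 3 reads in both, the median was -0.57 (-0.57 for the large and -0.61 for the small subunit). The share of all genes read in only 1 genotype was not taken. By edgeR 0 were called, against 0.167% of all genes, with 9 at an unadjusted p under 0.05 (12.8% of all genes), 5 by DESeq2, 1 by limma-voom and 2 by its quantile form. Mrpl22 had 0 CPM in all 3 P14 control libraries and the levels given above in Casp2-depleted ones, at least 57.1-fold higher (191 against 0 reads, log2 fold change 9.02, SE 3.26, edgeR adjusted p = 0.349). Mrpl21 had 26.1, 7.56 and 27.5 CPM in Casp2-depleted and 0 in control libraries, at least 27.2-fold higher (edgeR adjusted p = 0.349). Mrps18a had 2.82, 4.41 and 40.6 CPM against 1.41, 1.5 and 0 CPM (73 against 4 reads, log2 fold change 3.93, SE 2.20, edgeR adjusted p = 0.408). Mrpl52 showed the reverse, with 0 in all Casp2-depleted and 16.3, 17.2 and 7.59 CPM in control libraries, at least 20.8-fold lower (edgeR adjusted p = 0.379). These were the 3 higher and the 1 lower member whose groups did not overlap, against 3.01% and 2.14% of all genes. The genotype-by-day term from P7 to P14 called 0 members by edgeR and by limma-voom and 3 by DESeq2, against 0.0245% of all genes by edgeR, with 11 at an unadjusted p under 0.05 (9.76% of all genes).

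Members with and without a bacterial counterpart were compared within each subunit. From P1 to P7 in controls the median log2 fold change was 0.94 for the 29 tested large subunit genes with a counterpart, 1.28 for the 15 without, 1.5 for the 12 small subunit genes with and 5.03 for the 9 without, the last being 3.00 at the bound. From P7 to P14 in controls the medians were -2.68, -5.19, -1.66 and -5.03, or -2.05, -2.59, -2.22 and -2.86 at the bound. From P7 to P14 in Casp2-depleted CMs they were -1.55, -4.67, -3.42 and -2.24, or -1.48, -2.49, -2.27 and -1.94 at the bound. From P1 to P7 in Casp2-depleted CMs the medians were 0.02, 0.63, 0.28 and -0.44, so the small subunit genes without a counterpart had the opposite sign to the median of all members there (0.31).

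A few symbols do not say where the protein sits. Mrps18a and Mrps30 encode proteins found in the large subunit, and Mrps36 encodes a part of the 2-oxoglutarate dehydrogenase complex and no ribosomal protein. Mrps18a had 30.1 ± 36.0 CPM (SD, n = 3) in P1 controls, 35.6 ± 17.3 (n = 4) in P7 controls and 0.971 ± 0.842 (n = 3) in P14 controls. Mrps30 had only 16 reads, in 2 libraries. Mrps36 was read at P1 and P7, up to 56.3 CPM in a P7 Casp2-depleted library, and had 0 reads in all 6 P14 libraries. Mrpl58, a peptidyl-tRNA hydrolase built into the large subunit that frees stalled chains, had 178 reads, all at P1 and P7, and 0 at P14. With these genes moved to where their proteins sit, the mean ratio of large to small reads in P14 Casp2-depleted CMs went from 4.50 to 10.25. Most of this came from replicate 4, whose ratio went from 6.92 to 23.9, while the other ratios went from 4.46 to 4.62 and from 2.11 to 2.26. In the other groups the mean stayed within 1 SD of its value.

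Other genes of the same machinery were read from lists drawn up by function. The 5 mitochondrial ribosome genes with other symbols (Dap3, Ptcd3, Aurkaip1, Chchd1 and Gadd45gip1) had medians of 2.23 from P1 to P7 and -4.10 from P7 to P14 in controls, with none of 5 called. Of 25 assembly factors 23 were tested and none was called, with medians of 1.26 and -1.59 in controls and -4.51 from P7 to P14 in Casp2-depleted CMs. Of 14 translation factors 13 were tested and none was called (0.92 and -1.04 in controls). Of 19 mitochondrial tRNA synthetase genes 17 were tested and none was called (0.32 and 0 in controls), and their medians stayed between -0.47 and 0.34 in all comparisons of 2 groups. From P7 to P14 the median of the synthetase genes was 0 in both genotypes; the lists were not tested against each other.

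Genes of the respiratory chain, whose mitochondrially encoded subunits this ribosome makes, were read in the same way. Of 89 nuclear genes of oxidative phosphorylation 81 were tested, with medians of 1.27 from P1 to P7 and -2.39 from P7 to P14 in controls and -2.47 from P7 to P14 in Casp2-depleted CMs. From P7 to P14, 3 of them fell in controls (Atp5mg, Cox6a1 and Uqcrq) and 6 in Casp2-depleted CMs, against 1.88 and 2.83% of all genes called, among them Cox8a (log2 fold change -9.78, edgeR adjusted p = 0.00192) and Sdha, the flavoprotein of complex II (-9.24, edgeR adjusted p = 0.000652). Of 13 mitochondrially encoded mRNAs 6 were tested, and mt-Nd1, a complex I subunit, fell from P7 to P14 in Casp2-depleted CMs (-2.03, edgeR adjusted p = 0.0187). Of 13 genes of mitochondrial transcription and its control 10 were tested, and Ppargc1a and Ppargc1b, coactivators of mitochondrial genes, fell in the same comparison (-2.94, edgeR adjusted p = 0.00563, and -2.59, edgeR adjusted p = 0.000404). Neither of the mitochondrial ribosomal RNAs was called in any comparison. The 84 genes of the cytosolic ribosome, 71 of them tested, had medians of 0.57 from P1 to P7 and -2.19 from P7 to P14 in controls and -2.80 in Casp2-depleted CMs, with 1 called lower in each of the last 2 (Rps24 and Rps14), against the same 1.88 and 2.83% of all genes. The CM markers moved with these lists: all 12 were fitted lower at P14 than at P7 in both genotypes, with medians of -2.40 and -2.46, and 5 fell in each, against 1.88 and 2.83% of all genes called, among them Tnnt2, the cardiac troponin T gene (-2.50 in controls, edgeR adjusted p = 3.80e-11). Abcc9, from the mural cell list, also fell from P7 to P14 in Casp2-depleted CMs (-2.84, edgeR adjusted p = 0.0012), and the cells its reads came from are not known. What part the fall of the CM markers has in the members' values was not tested.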

How the data were processed

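The authors sorted PCM1-positive nuclei from pooled ventricles, made QuantSeq 3′ FWD libraries, trimmed the 100 bp single-end reads with cutadapt 4.0 after FastQC 0.11.8, aligned them with STAR 2.6.1e to GRCm39 (Ensembl 108 annotation) and deposited HTSeq 2.0.3 counts of reads over whole genes, exons and introns included. The strand setting and any use of molecular identifiers are not given in the sources used here, so reads of overlapping genes on opposite strands may not be separable. Lines of the count files that name no gene were kept out of library sizes and tests.

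Identifiers were matched to symbols for 56236 of 56923, which held 99.5% of reads. The main fit used edgeR 4.0.16 in R 4.3.3 (TMM scaling, quasi-likelihood F-test with robust estimation, Benjamini-Hochberg adjustment over 20368 genes) with 6 group means over 21 libraries and 15 residual degrees of freedom. The biological coefficient of variation was 1.5. A gene was called at an adjusted p under 0.05 and a log2 fold change beyond 1 in either direction, the study's own rule. Alternatives were limma-voom with TMM or quantile normalization (limma 3.58.1) and DESeq2 1.42.0. The study used limma but does not name its normalization, so its own analysis was not rerun. CPM are reads divided by the TMM-scaled library size (counts per 1e6); shares are percent of reads on genes. Each SE was taken from the fold change and its F value. Where a group had 0 reads, the fold is a bound against 3 reads over the group, which covers counting error only and not the spread between libraries. Thinning used a fixed seed. The fitting steps were tested on simulated data.

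Genes named in the text are the members called in any of the 12 comparisons, up to 3 members per direction and comparison with at least 50 reads whose groups did not overlap, the 6 most-read members per subunit, 4 members named for where their proteins sit or act, those with the fewest reads, and up to 3 called genes per other list and comparison; Mrpl17 and other genes of short counts are named beside those counts after their values were seen. The members, lists and tests were chosen with earlier results of these data known. The study describes each biological replicate as a pool of several hearts. The labels name no animals, so the pools were taken as separate, and p-values measure the spread between them. Promoters were cut from the GRCm39 genome at the start of the canonical transcript (GENCODE vM39). The targeted gene, pairing of replicate numbers, one-at-a-time removal of libraries and the other alternatives are covered in the closing section.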

Additional observations from a re-analysis of the deposited data

Results flagged for a closer look

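The values tested were those of named members, the subunit shares and their ratio, and the number of members detected. In 85 tests in a group of 4 libraries, 18 single libraries stood apart from the other 3 by Dixon's test at the 95% level, all for named members. For normally distributed values chance flags about 1 in 20, but several of these sets held 0 in all other libraries. None of these flags is a difference between groups, and their causes were not tested. Of the P1 Casp2-depleted group, replicate 4 was high for Mrpl22 (11.5 CPM), Mrpl3 (10.99 CPM), Mrps15 (33.0 CPM), Mrps18c (51.5 CPM) and Mrps36 (23.0 CPM), replicate 1 for Mrpl58 (45.7 CPM), replicate 2 for Mrpl2 (135.4 CPM) and replicate 3 for Mrps24 (36.6 CPM). Of the P7 controls, replicate 1 was high for Mrps28 (82.6 CPM) and Mrps30 (1.57 CPM), replicate 2 for Mrps36 (22.3 CPM) and replicate 4 for Mrpl52 (55.5 CPM, with the others at 5.04 to 7.84 CPM), and replicate 3 was low for Mrps5 (77.2 CPM). Of the P7 Casp2-depleted group, replicate 1 was high for Mrpl10 (16.8 CPM, with the others at 0) and Mrpl58 (11.2 CPM), and replicate 4 was high for Mrpl22 (84.4 CPM) and low for Mrpl47 (21.1 CPM, with the others at 82.7 to 92.2 CPM) and Mrps18c (0 CPM).

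The library set aside by the study, P1 control replicate 1, had 0.152% of its reads on the members, above the 0.0320 to 0.108% of the 21 libraries used. It also had 9.21% of uniquely placed reads on no gene, below the 34.3 to 76.1% of those libraries.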

How the results depend on the processing

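The low depth of the members (7 to 63 of 78 with a read in a library) and the spread between replicates limit all values above, and no median changed sign under an alternative except those named here. The share of all genes called was taken for the main edgeR fit only, so the counts of the alternatives stand without it. Counts of members called that differed from the edgeR fit were as follows. DESeq2 called 1 from P1 to P7, 8 from P7 to P14 and 2 from P1 to P14 in controls, 3 and 3 in Casp2-depleted CMs from P7 and from P1 to P14, 1 and 5 between genotypes at P1 and P14, and 1, 3 and 2 in the genotype-by-day terms (P7 over P1, P14 over P7, P14 over P1). Limma-voom called 1 from P1 to P7 and 11 from P7 to P14 in controls, 6 from P7 to P14 in Casp2-depleted CMs and 1 between genotypes at P14; with quantile normalization these were 2, 7, 5 and 2. From P1 to P14 in Casp2-depleted CMs 0 were called with only these groups fitted or with the share outside genes as a covariate. edgeR without robust estimation, an alternative chosen after seeing the data, called 1 from P7 to P14 in controls (Mrps5).

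Median log2 fold changes that moved were, from P1 to P7 in controls, 0.47 (all 24 libraries), 0.86 (filterByExpr), 1.94 (limma-voom), 0.94 (quantile normalization) and 0.18 (share outside genes as a covariate); from P7 to P14 in controls, -3.68 (DESeq2), -3.61 (filterByExpr), -2.82 (limma-voom), -1.31 (quantile normalization), -3.60 (no filter) and -1.28 (share outside genes); and from P1 to P14 in controls, -2.84 (all 24 libraries), -0.18 (quantile normalization) and -0.23 (no filter). In Casp2-depleted CMs they were -1.35 (quantile normalization), -1.42 (only these groups) and -0.53 (share outside genes) from P7 to P14, and -2.26 (filterByExpr), -1.46 (limma-voom), -0.86 (quantile normalization), -0.85 (only these groups), -0.58 (share outside genes) and -2.41 (thinned to equal depth) from P1 to P14. Between genotypes they were -0.052 (all 24 libraries) and -0.089 (share outside genes) at P1 and -0.79 (only these groups) at P14. With subunits set by where the proteins sit, the mean ratio of large to small reads in P14 Casp2-depleted CMs was 10.25, with replicate 4 at 23.9. Beyond what the fits show by construction, the causes were not tested.

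Leaving out 1 library at a time gave medians of 1.16 to 2.45 from P1 to P7, -5.62 to -3.54 from P7 to P14 and -1.93 to 0 from P1 to P14 in controls (0 without P1 control replicate 3), of -0.03 to 0.84, -5.10 to -1.76 and -5.42 to -1.14 in Casp2-depleted CMs (the first turned without P1 Casp2-depleted replicate 3, and the last was lowest without P14 Casp2-depleted replicate 2 and highest without P1 Casp2-depleted replicate 4), and of 0 to 2.38, -0.75 to -0.061 and 0 to 0 between genotypes at P1, P7 and P14 (at P1, 0 without P1 Casp2-depleted replicate 4). The mean ratio ranged over 1.97 to 3.39 and 1.48 to 3.30 at P1, 1.68 to 1.93 and 1.67 to 2.15 at P7, and 2.37 to 16.9 and 3.29 to 5.69 at P14, in controls and Casp2-depleted CMs; the value of 2.37 was without P14 control replicate 4. Members called ranged over 0 to 1 from P7 to P14 and from P1 to P14 in controls and 1 to 2 from P7 to P14 in Casp2-depleted CMs, and did not change elsewhere. Added calls were Mrps5 from P7 to P14 in controls without P1 Casp2-depleted replicate 2 or 3, P14 Casp2-depleted replicate 2 or P14 control replicate 1, Mrpl20 there without P14 control replicate 2, Mrps5 from P1 to P14 in controls without P14 control replicate 1, and Mrpl47 from P7 to P14 in Casp2-depleted CMs without P14 Casp2-depleted replicate 2.

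For same-numbered libraries of both genotypes, the correlations of their deviations from the group means were -0.059 to 0.185 over 9 pairs. Pairs with different numbers were not compared, so whether same-numbered libraries shared more than a number was not tested. With the replicate number as a block, 1 member was called from P7 to P14 in controls (Mrps5), the median was 1.90 from P1 to P7 in controls and -2.93 from P7 to P14 in Casp2-depleted CMs, and no other count changed.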
